A study of Mus musculus with 12 samples.

Results

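The axo-glial adhesion molecules described here are 8 genes, Nfasc, Cntn1, Cntn2, Cntnap1, Cadm2, Cadm3, Cadm4 and Jam3, chosen by name for their place at the contact between axon and myelin. All 8 were found among the 55376 gene symbols of the count table, and all 8 passed the filter on low counts, together with 17716 genes in all. RNA-Seq was performed on oligodendrocytes sorted as O1+ CD45- cells from brains of C57BL/6 mice at postnatal day 40, in 12 samples of 2 brains each. The 3 genotypes had 4 samples each: WT, Cnp-Cre Jab1fl/fl (Jab1 mutants) and Cnp-Cre Jab1fl/fl p21CIP1-/- (double mutants). Jab1 is Cops5, a subunit of the COP9 signalosome, and Cnp-Cre deletes it in cells that express Cnp, which are oligodendrocyte lineage cells and also Schwann cells. p21CIP1 is Cdkn1a, a cell cycle inhibitor, and its knockout in double mutants is not limited to the cells that express Cnp, so that double mutants differ from WT at both loci.

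At a node of Ranvier, the myelin sheath is sealed to the axon by the paranodal junction on either side. There the glial form of neurofascin, encoded by Nfasc, meets a complex of contactin-1 (Cntn1) and Caspr (Cntnap1) on the axon. Next to it, in the juxtaparanode, contactin-2 (Cntn2) is present on both the glial and the axonal membrane and holds potassium channels in place. Along the internode, nectin-like proteins join the membranes, with Cadm4 on the glial side, Cadm3 mainly on the axon and Cadm2 on axons and oligodendrocytes. Jam3 encodes JAM-C, a junctional adhesion molecule found in myelinating glia and endothelium. Some members are therefore thought of as glial and others as mostly neuronal, and all 8 were measured here in sorted glial cells.

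Total counts ranged from 61485556 to 153495112 per sample, with medians of 113765824 in WT, 78498439 in Jab1 mutants and 105250919 in double mutants. Levels are given in CPM, read counts scaled to the size and composition of the library. Cops5 was at 102.9 ± 39.7 CPM in WT, 66.9 ± 18.0 in Jab1 mutants and 58.6 ± 21.5 in double mutants (SD, n = 4 each). By sample it was at 133.4, 46.3, 127.4 and 104.6 CPM in WT, 89.0, 65.2, 68.4 and 45.0 in Jab1 mutants and 47.3, 44.2, 90.4 and 52.3 in double mutants. The library labelled WT replicate 3 was within the range of the mutants, unlike the other WT samples, so its Cops5 level does not bear out its label. Cdkn1a was at 41.6 ± 31.4, 452.3 ± 123.5 and 88.4 ± 17.9 CPM in the same order. Counts over a whole gene, for Cops5 as for Cdkn1a, do not separate deleted from kept exons. The Cdkn1a counts therefore do not check the p21CIP1-/- label, and the Cops5 counts do not settle the Jab1 genotype of a sample. All 12 mature oligodendrocyte markers, such as Mbp and Mog, were detected in every sample, and they summed to 41648 to 102618 CPM in WT, 9971 to 37255 in Jab1 mutants and 18870 to 57282 in double mutants. Markers of some other cells also differed in Jab1 mutants. Against WT, edgeR called higher 10 of 10 microglial, 5 of 7 endothelial and 3 of 6 mural markers. Only 1 of 6 choroid plexus and ependymal and 1 of 8 oligodendrocyte progenitor markers were called higher. Over all genes, 5.19% were called higher. It called 0 of 9 astrocyte and 0 of 6 premyelinating markers. At an unadjusted p under 0.05 were 3 astrocyte markers (2 lower, 1 higher) and 1 premyelinating marker (lower), where 22.5% of all genes were. The 10 microglial markers summed to 91.1 to 252.9 CPM in WT, 839.7 to 2171 in Jab1 mutants and 313.9 to 15865 in double mutants, and double mutant replicate 3 held the highest sum. The 7 endothelial markers summed to 280.9 to 646.8, 696.1 to 4800 and 570.7 to 4521 CPM. The 6 choroid plexus and ependymal markers summed to 289.9 to 4019, 6390 to 24251 and 5351 to 23599 CPM. Among these 6, Ttr alone had means of 2079, 14353 and 11629 CPM. In Jab1 mutant replicate 3 their sum (24251 CPM) was above that of the mature oligodendrocyte markers (9971 CPM). The 9 astrocyte markers summed to 5299 to 12665, 3264 to 8234 and 3715 to 10552 CPM. The library labelled WT replicate 3 stood apart in other ways as well. It had the highest astrocyte sum of all 12 samples (12665 CPM), the lowest microglial sum (91.1 CPM) and the lowest mean of oligodendrocyte markers among WT. It also had the highest Nfasc, Cntn1, Cntn2, Cadm2 and Cadm4 and the lowest Jam3 and Cadm3 of its group. Its Cdkn1a level (43.3 CPM) was within the range of the other WT samples. Directions against WT rest in part on this library and are also given without it. In bulk samples, fewer oligodendrocytes and less RNA per oligodendrocyte cannot be told apart.

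The members lie on 6 chromosomes of GRCm38. Nfasc (chr1:132564690-132741797) and Cntn2 (chr1:132509427-132543256) are neighbours on the minus strand, 21433 bases apart. Cadm3 is on the same chromosome (chr1:173333258-173367695, minus strand), and Cntn1 (chr15:92051165-92341967, plus strand), Cntnap1 (chr11:101170523-101190724, plus), Cadm2 (chr16:66655421-67620908, minus), Cadm4 (chr7:24482023-24504539, plus) and Jam3 (chr9:27097384-27155421, minus) lie on others. As Cntn2 and Nfasc both fell in Jab1 mutants, their RefSeq start regions on GRCm38.p6 are printed, 250 bases before the start site in lower case and 50 after it in capitals. The Cntn2 window (chr1:132542891-132543190, minus strand) lies inside the GENCODE gene, with 49 of its 300 bases in an exon. Of 2 Nfasc windows, the one printed (chr1:132707277-132707576, minus strand) is the more upstream and lies inside that gene too, with 130 bases in an exon. The other (chr1:132642809-132643108, minus strand) has 50 bases in an exon and is not printed.
Cntn2: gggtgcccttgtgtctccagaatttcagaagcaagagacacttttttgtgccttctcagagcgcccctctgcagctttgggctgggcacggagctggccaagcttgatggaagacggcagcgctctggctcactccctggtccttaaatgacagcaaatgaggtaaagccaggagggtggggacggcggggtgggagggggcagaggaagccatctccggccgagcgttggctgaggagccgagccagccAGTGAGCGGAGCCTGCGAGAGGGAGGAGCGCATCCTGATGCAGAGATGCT
Nfasc: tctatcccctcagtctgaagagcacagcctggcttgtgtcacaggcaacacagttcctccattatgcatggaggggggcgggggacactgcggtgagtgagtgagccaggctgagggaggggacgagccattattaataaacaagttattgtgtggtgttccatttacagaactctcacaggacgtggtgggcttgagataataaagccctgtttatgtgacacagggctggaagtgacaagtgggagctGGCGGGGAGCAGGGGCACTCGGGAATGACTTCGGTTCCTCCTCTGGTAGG
The Cntn2 window was 61.3% G and C, the printed Nfasc window 54.3% and the other 52.0%, against a median of 52.7% over all 32851 start regions in the table. Entries were found for 6 of the 8 members, with 9 windows in all, and Cntnap1 and Jam3 are named only. On either strand, the SOX core ACAAAG was in 0 of the 9 windows and in 18.7% of all start regions. The GC box GGGCGG was in 3, one window each of Nfasc, Cadm4 and Cadm2, and in 35.7% of all, the TATA box TATAAA in 1 window of Cntn1 and in 13.6% of all, and the E-box CAGCTG in the Nfasc window not printed and in 16.3% of all.

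In WT oligodendrocytes, the 8 members covered a wide range of RNA levels. Per kilobase of exon, Jam3 was highest at 88.1 ± 31.9 CPM per kb (SD, n = 4), above 96.0% of the 17558 tested genes with a length. Cntn2 followed at 53.6 ± 35.8 CPM per kb and Nfasc at 26.2 ± 13.9, above 92.7% and 84.6% of genes. Cadm2 at 13.9 ± 5.12, Cntn1 at 9.50 ± 2.75 and Cadm4 at 7.96 ± 4.79 CPM per kb formed a middle group. Cadm3 at 0.508 ± 0.164 and Cntnap1 at 0.375 ± 0.298 were near the bottom, above 11.4% and 8.33% of genes. Neighbours in this order overlapped in their sample ranges, except that every sample was at or above 5.45 CPM per kb for Cadm4 and at or below 0.699 for Cadm3. In Jab1 mutants the order was Jam3, Cadm2, Nfasc, Cntn2, Cntn1, Cadm4, Cntnap1 and Cadm3. Cntn2 ranked 2 in WT and 4 in Jab1 mutants, at 5.12 ± 4.03 CPM per kb, above 50.3% of genes. In double mutants it ranked 3, at 12.2 ± 12.1 CPM per kb, above 70.7%.

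**Figure D1:**
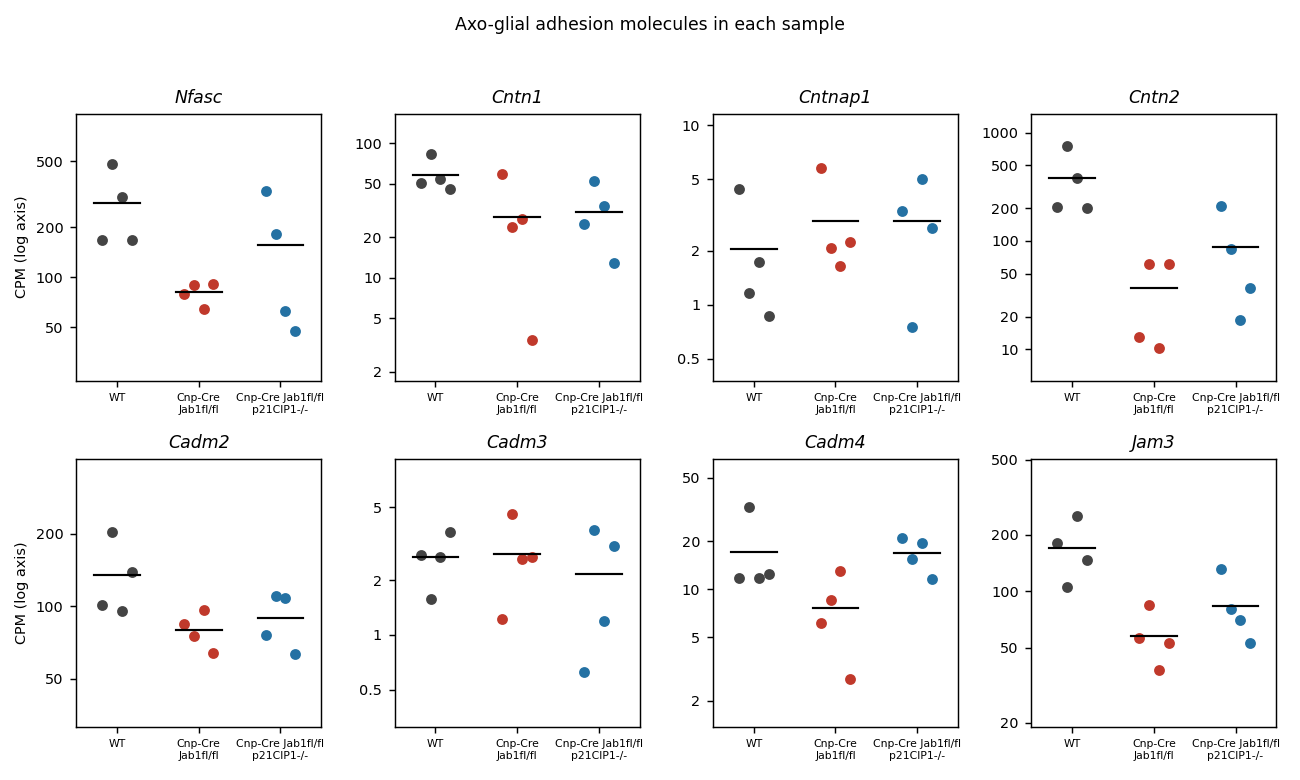
Level of each of the 8 genes in CPM, on a log axis, in every sample of the 3 genotypes; points are samples in order of replicate number and bars are means. The Jab1-mutant samples of Nfasc, Cntn2 and Jam3 all lie below all WT samples, and the other 5 genes overlap.

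The first comparison, Jab1 mutants with WT, asked how these genes stood in libraries of Jab1 mutants, whose cell type markers also differed. Cntn2, Nfasc and Jam3 were lower, and no member was called higher. These 3 of 8 members passed the adjusted threshold (edgeR quasi-likelihood test, Benjamini-Hochberg over all genes), against 2.46% of all genes tested that were called lower and 7.64% called in either direction. Their groups were also the only 3 of 8 that did not overlap, with 7.24% of all genes not overlapping and lower in the mutants. The median log2 fold change was -1.10 over the members and 0.02 over all genes. The members were chosen with earlier results of these data known. Their shares beside all genes are therefore a description and not a test of an excess.

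Cntn2, which clusters juxtaparanodal potassium channels with Caspr2, changed most. It was at 206, 750, 380 and 204 CPM in the libraries labelled WT replicates 1, 3, 5 and 6, and at 13.1, 61.9, 10.2 and 61.7 CPM in Jab1 mutant replicates 1 to 4. The highest mutant sample lay far under the lowest WT sample. Its mean was 10.5-fold lower, with a log2 fold change of -3.39 (SE 0.69, adjusted p = 0.0149, edgeR). The mutants split into 2 samples above 60 and 2 below 15 CPM. The pair with less Cntn2, replicates 1 and 3, also had the lowest mean log2(CPM + 1) of mature oligodendrocyte markers. By summed CPM of these markers, replicate 3 was lowest (9971), but replicate 1 (33772) was above replicate 4 (21850). The call held in each fit without 1 sample, with log2 fold changes from -3.78 to -2.85. Cntn2 is also in a list of genes that the study chose on these samples, so its direction is not independent evidence.

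Nfasc was at 168, 483, 305 and 169 CPM in WT and at 79.9, 89.6, 64.8 and 91.3 CPM in Jab1 mutants. The mutants varied little, with a coefficient of variation of 14.9% against 53.1% in WT. The level was 3.45-fold lower, a log2 fold change of -1.79 (SE 0.38, adjusted p = 0.0174, edgeR). The counts add up all Nfasc transcripts, so that the glial form and the axonal form, which share most exons, are not separated. The call was lost without Jab1 mutant replicate 1 (log2 fold change -1.78, adjusted p = 0.0505, edgeR), without replicate 3 (-1.69, adjusted p = 0.0561, edgeR) and with all 12 samples in one fit (-1.79, adjusted p = 0.0741, edgeR).

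Jam3 was at 180, 106, 252 and 146 CPM in WT and at 56.2, 84.5, 38.1 and 53.2 CPM in Jab1 mutants. The highest mutant was below the lowest WT sample. The level was 2.95-fold lower, a log2 fold change of -1.56 (SE 0.35, adjusted p = 0.0234, edgeR). Without WT replicate 1 or 5, or Jab1 mutant replicate 1, 3 or 4, the adjusted p (edgeR) lay between 0.0537 and 0.0696. Of the Jam3 exon bases, 30.3% also lie in exons of the antisense gene Gm48796 (339 to 4735 counts), whose log2 fold change was -1.83. Strand in the counting is not stated, so reads of the 2 genes cannot be told apart there. Jam3 is also expressed in endothelium, whose markers were higher in Jab1 mutants, and their part in the Jam3 level was not tested.

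The other 5 members did not pass the adjusted threshold. Cadm4, the glial partner of the internodal pair, was at 11.8, 32.7, 11.8 and 12.5 CPM in WT and at 6.14, 8.57, 13.0 and 2.76 CPM in Jab1 mutants. Its log2 fold change was -1.17 (SE 0.57, adjusted p = 0.257, edgeR), and only mutant replicate 3 reached the WT range. Cadm2, a nectin-like protein of axons and oligodendrocytes, was at 101, 203, 95.5 and 139 CPM in WT and at 84.1, 74.8, 96.1 and 64.1 CPM in mutants. Its log2 fold change was -0.76 (SE 0.31, unadjusted p = 0.0328, adjusted p = 0.176, edgeR), and the groups overlapped by 1 sample. At an unadjusted p under 0.05, 4 of 8 members were lower, Cadm2 beside the 3 named above, against 9.3% of all genes.

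Cntn1, the contactin of the paranode, was at 50.4, 82.8, 54.2 and 45.3 CPM in WT and spread from 59.0 in mutant replicate 1 to 3.44 in replicate 4. The difference was smaller than that spread, with a log2 fold change of -1.03 (SE 0.61, adjusted p = 0.359, edgeR). Cntnap1 and Cadm3 were low in every sample. Cntnap1 was at 0.867 to 4.41 CPM in WT and 1.65 to 5.80 in mutants (log2 fold change 0.52, SE 0.88, adjusted p = 0.786, edgeR), and Cadm3 at 1.57 to 3.67 and 1.22 to 4.58 CPM (0.05, SE 0.78, adjusted p = 0.977). Neuronal markers summed to 229.5 to 404.6 CPM in WT and 383.8 to 911.5 in mutants, with 11 of 12 above 0 in fitted fold change. None of these 12 was called by edgeR, and 4 were at an unadjusted p under 0.05, where 22.5% of all genes were. Their part in the Cntnap1 and Cadm3 levels was not tested. Cadm3 also shares 5.40% of its exon bases with Ackr1.

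**Figure D2:**
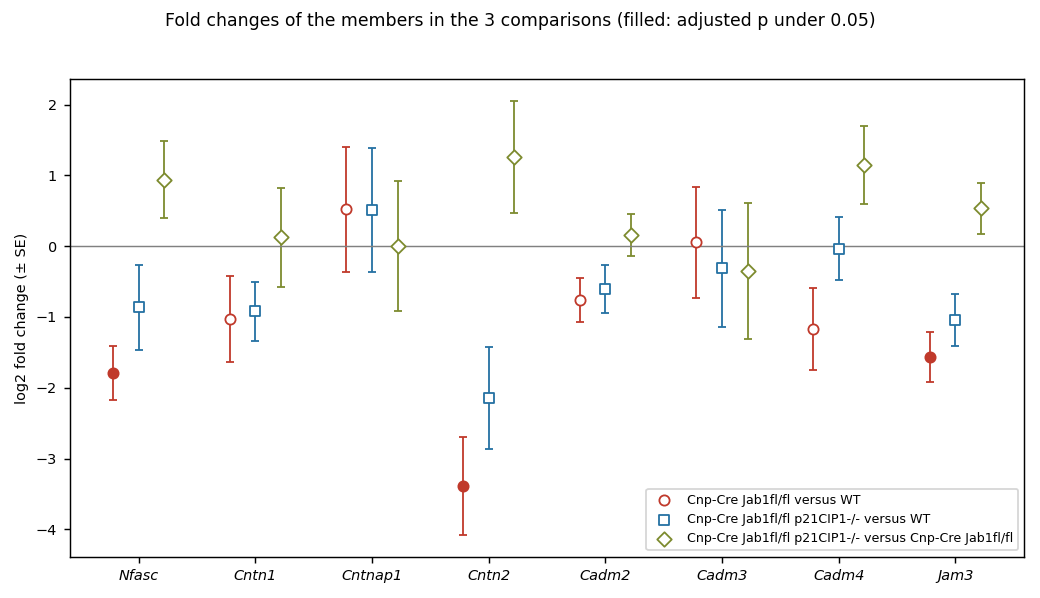
Log2 fold change of each member with its standard error in the 3 comparisons of genotypes, 8 samples each; filled symbols have an adjusted p under 0.05 (edgeR). Filled symbols appear for Nfasc, Cntn2 and Jam3 in Jab1 mutants versus WT, at -1.79, -3.39 and -1.56.

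Without the library labelled WT replicate 3, which stands apart, the same 3 members were called, where 865 of all 17716 genes were. Their log2 fold changes were -1.41 for Nfasc, -2.85 for Cntn2 and -1.75 for Jam3. The value of Cadm4 went from -1.17 to -0.68 and that of Cadm2 from -0.76 to -0.50.

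The second comparison, double mutants with WT, asked how the genes stood when p21CIP1 was lost as well. No member was called by edgeR, where 0.192% of all genes were called in either direction and 0.0169% were called lower. Those 34 calls over all genes became 274 without double mutant replicate 1 and 1 to 8 without any other sample, and no member was called in any of these fits. At an unadjusted p under 0.05, 3 members were lower, Cntn2, Jam3 and Cntn1, against 4.57% of all genes, and no member was without overlap, against 3.58%. The median of the members was -0.74 and that of all genes was 0.00 on the log2 scale.

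Cntn2 was at 211, 84.8, 18.6 and 36.8 CPM in double mutant replicates 1, 2, 3 and 5, so that 1 sample reached the WT range and 2 lay within the range of Jab1 mutants. Its log2 fold change against WT was -2.15 (SE 0.72, adjusted p = 0.251, edgeR). DESeq2 called it (log2 fold change -2.11, adjusted p = 0.0222), with 1.12% of all genes called lower by DESeq2. Nfasc was at 332, 182, 62.7 and 47.7 CPM, spanning both other genotypes, with a log2 fold change of -0.87 (SE 0.61, adjusted p = 0.601, edgeR). Replicate 1 was highest for both genes and for Jam3, which was at 131, 80.9, 70.01 and 53.2 CPM (log2 fold change -1.04, SE 0.37, adjusted p = 0.279, edgeR). Replicate 1 also had the lowest microglial sum among the mutants, and its oligodendrocyte markers were at 57282 CPM, within the WT range. Replicate 3, with the highest microglial sum, and replicate 5 had the least Nfasc and Cntn2. Without replicate 1, the log2 fold change against WT was -3.05 for Cntn2 (adjusted p = 0.0562, edgeR) and -1.54 for Nfasc (adjusted p = 0.227, edgeR). Without double mutant replicate 3 or 5, Nfasc was at -0.57, and without the library labelled WT replicate 3 it was at -0.48 and Cntn2 at -1.61.

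Cadm4 was at 21.03, 15.6, 19.5 and 11.6 CPM in double mutants, all but the last above the 3 lower WT samples (log2 fold change -0.04, SE 0.45, adjusted p = 0.984, edgeR). Without the library labelled WT replicate 3, the value was 0.48. Cntn1 was at 24.9, 51.9, 34.4 and 12.8 CPM (-0.92, SE 0.41, adjusted p = 0.400, edgeR), and Cadm2 at 75.7, 110, 108 and 63.3 CPM (-0.61, SE 0.33, adjusted p = 0.495). Cntnap1 ranged from 0.752 to 4.98 CPM and Cadm3 from 0.630 to 3.77, with log2 fold changes of 0.52 and -0.32 and standard errors of 0.87 and 0.82.

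In the third comparison, double mutants with Jab1 mutants, 0 members and 0% of all genes were called by edgeR, and 0 members were at an unadjusted p under 0.05, where 885 genes (5%) were. DESeq2 called 0 members and 0.491% of all genes. The fitted differences were largest for Cntn2 at 1.26 (SE 0.79), Cadm4 at 1.15 (SE 0.55) and Nfasc at 0.94 (SE 0.55) on the log2 scale. Without double mutant replicate 1, Cntn2 was at 0.34 and Nfasc at 0.26. Jam3 was at 0.53 (SE 0.36), and Cadm2, Cntn1, Cntnap1 and Cadm3 lay between -0.36 and 0.16. For Cadm4, 3 double mutants were above all Jab1 mutants and the other was below 1 of them. The comparisons with WT share the same WT samples.

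Since most markers of mature oligodendrocytes fell as well, each member was set against the mean of all 12 in its own sample. Of these 12 markers, 7 were called lower in Jab1 mutants and 11 had a fitted fold change below 0. The exception was Mbp, with a log2 fold change of 0.27 (adjusted p = 0.811, edgeR). The mean of log2(CPM + 1) over the 12 markers was 10.83 ± 0.62 in WT, 8.72 ± 0.94 in Jab1 mutants and 9.62 ± 0.85 in double mutants (SD, n = 4 each). The member minus this mean was compared by two-sided exact permutation tests, of which the smallest possible p is 0.0286. None of the 24 tests passed after adjustment. Even the 2 tests at the smallest possible p had an adjusted p = 0.343 (exact permutation test). A few members alone could thus not pass at this sample size, and the count decides nothing about a member. Jam3 had the smallest spread around the markers in WT (SD 0.15, n = 4), at -3.32, -3.43, -3.68 and -3.47 log2 units from their mean. In Jab1 mutants it was at -2.45, -3.49, -2.43 and -3.23, and the difference of 0.58 had an exact p = 0.114. For Nfasc the difference was 0.46 (exact p = 0.429). Cntn2 was the 1 member with a negative difference, -1.45 (exact p = 0.0857, adjusted p = 0.429), and without the library labelled WT replicate 3 it was -0.84. Cntn2 was at -3.13, -0.62, -3.09 and -2.998 from the marker mean in WT and at -4.46, -3.93, -4.23 and -3.02 in Jab1 mutants, with 1 mutant within the WT range. Cntnap1 and Cadm3 were 2.503 and 2.10 higher relative to the markers (exact p = 0.0286 for both, adjusted p = 0.343), with their own CPM overlapping between the groups. Their own log2 fold changes were 0.52 and 0.05 (edgeR), at low levels, so these 2 differences mostly restate the fall of the marker mean.

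**Figure D3:**
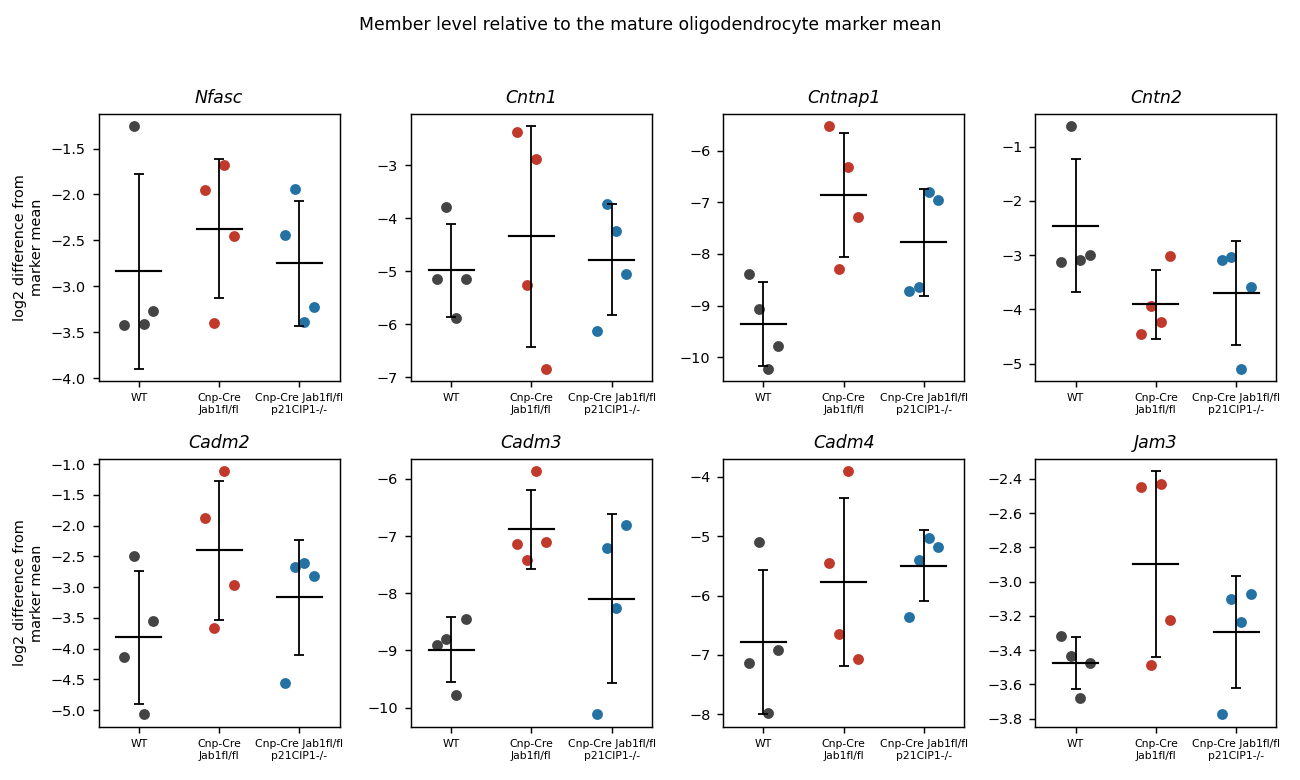
Log2(CPM + 1) of each member minus the mean of the 12 mature oligodendrocyte markers in the same sample, by genotype; points are samples, and bars with whiskers give mean and SD. Cntn2 is the gene with a lower mean in Jab1 mutants than in WT, by 1.45, and the library labelled WT replicate 3 lies apart for Nfasc and Cntn2.

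The 2 contactins were also set against each other. The log2 ratio of Cntn1 to Cntn2 was -2.52 ± 0.54 in WT, -0.43 ± 2.69 in Jab1 mutants and -1.08 ± 1.62 in double mutants (SD, n = 4 each). Jab1 mutants ranged from -3.82 to 2.09, on both sides of the WT samples, and neither mutant genotype passed the test against WT (exact p = 0.229 and 0.143). Thus replicates 1 and 3 held more Cntn1 than Cntn2, and replicates 2 and 4 the reverse.

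Across the 12 samples, Nfasc and Cntn2 were the pair of members most alike, with Pearson's r = 0.90, and 0.82 after the genotype means were taken out. Of 8 other tested genes within 200000 bases of the 2 genes, 5 had a negative log2 fold change in Jab1 mutants, where 8688 of all 17716 genes did. Of the same 8 genes 1, Tmcc2, was called (-2.06, adjusted p = 0.0117, edgeR), where 7.64% of all genes were called in either direction. Genes most like a member over the 12 samples shared genotype and library with it, and r is a description. They were Aatk (0.98) and Arhgef10 (0.98) for Nfasc, Edil3 (0.98) and Arhgap23 (0.97) for Cntn2, and Sept4 (0.99) and Gpm6b (0.98) for Jam3. After removal of genotype means these 6 values were between 0.93 and 0.97. For Cntn1 they were Rhobtb2 (0.94) and Lifr (0.94), for Cadm4 Lgr4 (0.95) and Zfp507 (0.93), and for Cadm2 Adgrl3 (0.94) and Shisa9 (0.94). For the genes at low levels they were Cd36 (0.82) and Gm6170 (0.82) for Cntnap1, and Myb (0.91) and Gm9625 (0.86) for Cadm3. After removal of genotype means, the values for these 5 members were 0.96 and 0.94 for Cntn1, 0.93 and 0.87 for Cadm4, 0.89 and 0.92 for Cadm2, 0.81 and 0.92 for Cntnap1, and 0.97 and 0.85 for Cadm3, in the same order of genes.

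Other genes of the node and the myelin membrane gave a wider view. Of 54 related genes in 7 lists, 47 were tested, and in Jab1 mutants 11 fell, against 2.46% of all genes, and 2 rose, against 5.19%, with a median log2 fold change of -0.78. Without the library labelled WT replicate 3, 6 of the 47 were called, where 865 of all 17716 genes were. These lists too were chosen with earlier results of these data known, so the shares are a description. Of the 8 genes listed as other myelin surface and adhesion proteins, 6 fell and 0 rose, and their median was -2.17. They were led by Omg, oligodendrocyte myelin glycoprotein (-2.14, SE 0.36, adjusted p = 0.00660, edgeR), Opalin (-4.29), Ermn (-2.36), which encodes a cytoskeletal and not a surface protein of the sheath, and Tspan2 (-2.11). Of these 8, 5 are also in the list of mature oligodendrocyte markers. Among 3 galactolipid enzymes, Fa2h, which hydroxylates the fatty acids of myelin lipids, fell (-3.12, SE 0.65, adjusted p = 0.0166, edgeR), and the median was -2.34.

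Among 11 tested axonal channels and partners, Adam22 (-1.93) and Kcna1, a juxtaparanodal potassium channel (-2.11), fell, and the median was -0.52. Genes listed as paranodal cytoskeleton went both ways. Ank3 (-1.63) and Ank2 (-1.08), the ankyrins that tie membrane proteins to spectrin, fell, while the spectrin Sptbn1 rose (1.72), with a median of 0.91 over 8 genes. Sptbn1 was at 182 to 979 CPM in Jab1 mutants and at 170 to 199 CPM in WT, so the groups overlapped. The part of other cells in its level was not tested. Among 6 nectin-like and JAM relatives 1 rose, F11r (2.60, SE 0.44, adjusted p = 0.00682, edgeR), which encodes JAM-A and is also known from endothelium and leukocytes. The microglial and endothelial sums given above moved with it, and their part was not tested. No gene was called among 5 tested contactin, Caspr and L1 relatives, where Nrcam had the smallest p (-1.39, unadjusted p = 0.0210, adjusted p = 0.137, edgeR). None was called among 6 perinodal matrix genes, where Hapln2 had the smallest p (-1.71, unadjusted p = 0.00859, adjusted p = 0.0810, edgeR). In double mutants against WT, edgeR called 0 of the 47 genes and 8 were at an unadjusted p under 0.05, where 12.4% of all genes were. DESeq2 called 5 of them, and 4.87% of all genes in either direction. Against Jab1 mutants, edgeR called 0, with 4 at an unadjusted p under 0.05, where 5% of all genes were.

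**Figure D4:**
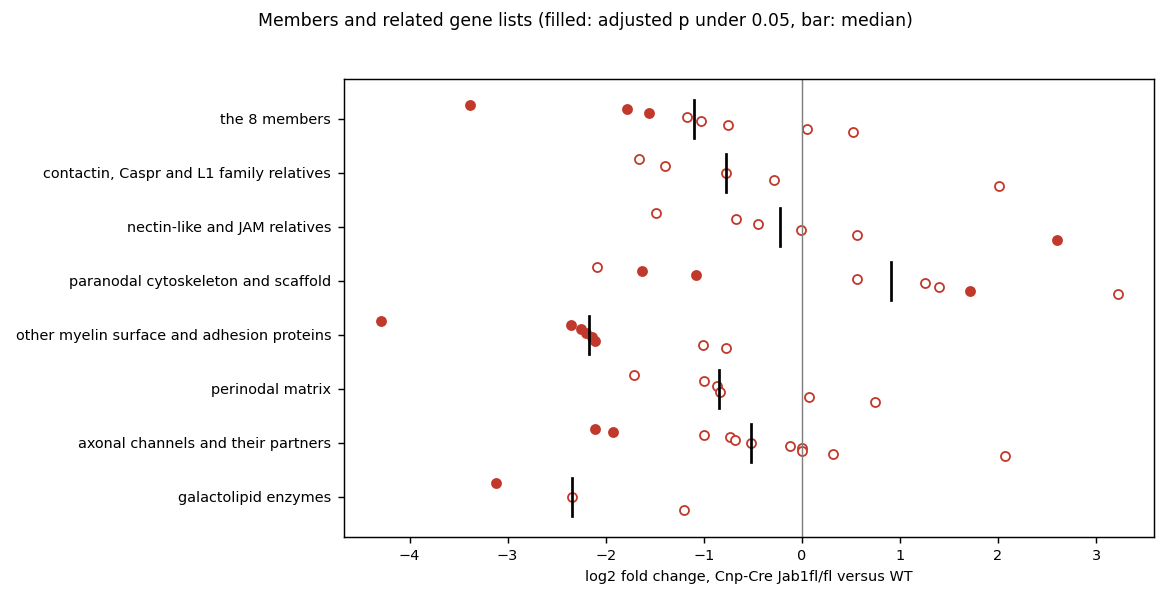
Log2 fold change of Jab1 mutants versus WT for the 8 members and for each tested gene of 7 related lists; every point is a gene, filled points have an adjusted p under 0.05 (edgeR), and bars are medians. The list of other myelin surface and adhesion proteins and the galactolipid enzymes lie furthest to the left, with medians of -2.17 and -2.34, and the members have a median of -1.10.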

How the data were processed

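RNA-Seq of 12 samples was analysed, 4 per genotype, with genotypes taken from the labels. The deposited table gives raw counts for each gene symbol. Per the labels and the paper's methods, the authors used a SMART-Seq v4 kit, Trimmomatic 0.32 for trimming, STAR 2.5.3a for alignment to GRCm38, and featureCounts with GENCODE basic genes for the counts. Handling of strand and of reads with several matches is not given in the sources used here, so overlapping genes are uncertain.

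CPM values were computed with TMM factors. Genes that reached 1 CPM in 4 or more samples were tested with edgeR 4.0.16 (quasi-likelihood, R 4.3.3), separately for each pair of genotypes (8 samples), and an adjusted p (Benjamini-Hochberg) under 0.05 was a call; the script was tested on simulated data. A standard error is the size of the log2 fold change divided by the square root of F. Alternatives were DESeq2 1.42.0, limma 3.58.1 (voom with quality weights), other factors, filters and fits, and leaving out each sample. Positions and exon lengths come from GENCODE M21 on GRCm38, a release before the one the authors counted on, so CPM per kb divides by lengths of the older release. Start regions come from RefSeq. Replicates are separate samples, and p-values measure the spread between them.

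The members and lists were chosen with earlier results of these data known. All members were named. From each related list, the called genes were named, at most 4 by smallest adjusted p, or the 1 with the smallest p where none was called. For each member the 2 genes with the highest Pearson r of log2(CPM + 1) were named. Tmcc2, Gm48796 and Ackr1 were chosen by position.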

Additional observations from a re-analysis of the deposited data

Results flagged for a closer look

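Of 24 groups of 4 samples (8 genes in 3 genotypes), 2 held a sample far from the other 3 by Dixon's test, where chance gives about 1 in 20. Cntnap1 in Jab1 mutant replicate 1 was at 5.80 CPM, with the nearest sample at 2.23, and the gap was 0.859 of the whole range. Without that sample the log2 fold change of Cntnap1 against WT went from 0.52 to -0.045. Cadm4 in the library labelled WT replicate 3 was at 32.7 CPM, with the nearest sample at 12.5 (0.966 of the range).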

How the results depend on the processing

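In Jab1 mutants versus WT, 3 members were called in the main analysis and 1 to 3 without 1 sample (1 without Jab1 mutant replicate 1 or 3). Of the related genes, 13 were called, 5 to 17 without 1 sample, 6 with all 12 samples in one fit, 7 with no filter, 12 with upper-quartile and 13 with RLE factors, 16 at a mean of at least 10 CPM, and 19 with DESeq2 and with limma. Over all genes, 1354 were called and 678 to 1863 without 1 sample. Same-numbered samples did not deviate together (correlations from -0.19 to 0.08 over 8 pairs, 0 above 0.1). Such correlations cannot exclude a shared batch, and the sources used here do not state whether the numbers pair samples. With the replicate block, 0 members and 0 related genes were called, with 76 of all genes called higher and 3 lower. In double mutants versus WT, DESeq2 called 1 member and 5 related genes, limma 2 related genes, the fit of all 12 samples 1, and fits without 1 sample 0 to 3. Fold changes near 0 changed sign. Cadm3 in Jab1 mutants versus WT was -0.25 with limma, -0.14 with the replicate block, -0.039 with no filter and -0.31 to 0.30 without 1 sample, and Cntnap1 was -0.045 to 1.23. Cadm4 in double mutants versus WT was 0.011 with DESeq2, 0.25 with limma, 0.0013 with the replicate block, 0.011 with RLE factors, 0.0021 with upper-quartile factors, 0.011 at a mean of at least 10 CPM, and -0.18 to 0.48 without 1 sample. Between the mutants, Cntnap1 was -0.23 with limma, -0.12 with the replicate block, -0.0073 with upper-quartile factors and -0.34 to 0.59 without 1 sample, Cntn1 was -0.15 with the replicate block and -0.24 to 0.78 without 1 sample, and Cadm3 was -0.77 to 0.00024. Relative to the markers, ranges without 1 sample crossed 0 for Nfasc (-0.18 to 0.62) and Cntn1 (-0.15 to 0.65) in double mutants versus WT, for Cntn1 in Jab1 mutants versus WT (-0.012 to 1.47), and between the mutants for Cntn1 (-1.28 to 0.21), Cadm4 (-0.16 to 0.90), Cntn2 (-0.017 to 0.67) and the Cntn1 to Cntn2 ratio (-1.78 to 0.19). The causes were not tested. Over all alternatives, 339 fold changes of members kept direction and call, 27 changed sign, 11 lost the call and 1 gained it. Only the 3 members called in Jab1 mutants versus WT had a call to lose. The 339 include results that were uncalled and stayed so, and thus do not measure how stable the calls were.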
